A study of Mus musculus with 13 samples.

Results

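The 902 regions described here are places on the mouse genome that gained a SMAD2/3 chromatin immunoprecipitation peak within 1 h of activin A and that carried no FOXL2 region found in both activin libraries. They were selected on peak calls. Peaks of the 2 activin SMAD2/3 libraries were merged at 1 bp, regions called in both were kept if neither vehicle SMAD2/3 library had a peak on them, and these 4642 new sites were then split by FOXL2. The 902 regions without FOXL2 made up 19.4% of the new sites (Wilson 95% interval 18.3 to 20.6%), and the other 3740 carried a FOXL2 region. They were 17.5% of the 5162 SMAD2/3 regions called in both activin libraries and came from 8602 regions merged over all 4 SMAD2/3 libraries. New sites were 54% of those 8602 regions, a share that the selection itself fixes.

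Activin A binds a pair of receptor kinases at the cell surface, which phosphorylate SMAD2 and SMAD3. The phosphorylated SMADs join SMAD4, enter the nucleus and bind short DNA elements, usually beside other transcription factors. FOXL2, a forkhead factor, is such a partner in gonadotropes, the pituitary cells that secrete luteinizing hormone and follicle-stimulating hormone. Acetylation of histone H3 at lysine 27 (H3K27ac) marks promoters and enhancers in use.

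All samples came from LβT2, a mouse gonadotrope line, stably transduced with a doxycycline-inducible FLAG-mFoxL2, so the vehicle and the activin samples alike held induced tagged FOXL2. After 24 h of recovery and 48 h of doxycycline, cells spent 2 h in low serum and 1 h under vehicle or with 1 nM activin A, and were fixed in 1% formaldehyde. Each treatment had 2 samples, each pooled from 3 plates, and each sample was precipitated for SMAD2/3, for the FLAG tag and for H3K27ac, which gave 12 libraries of 50 bp single-end reads. The FLAG antibody reads the tagged protein and not the cells' own FOXL2, and a single transduced line stands for all gonadotropes. Whether the 2 samples of a treatment were grown at separate times is not given in the sources used here, so the spread between them may be technical. A Protein-A control is described in the labels and was not analysed here.

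Peak lists were of unequal length. The vehicle SMAD2/3 libraries gave 605 and 144 peaks, the activin ones 7784 and 5970. FLAG lists held 83834 to 97701 peaks and H3K27ac lists 38995 to 41763. The reads behind each list are unknown, so an absent peak means only that none was called. H3K27ac checked the labelled cell type. Of 20 listed gonadotrope genes, 13 had a RefSeq start window. In either treatment 9 of the 13 had an H3K27ac region of both libraries over it, Lhb, Cga and Gnrhr among them. Fshb, Esr1, Esr2 and Pgr had none. Of 7 listed genes of other pituitary lineages none did after activin and Neurod1 alone did under vehicle, against 28.0% (vehicle) and 27.6% (activin) of 27025 genes.

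Most of the 902 sites lay far from gene starts, and 10 of them overlapped 12 of the 32851 start windows in RefSeq's GRCm38.p6 table (250 bases before to 50 after a start). Of these, 3 had their strongest SMAD2/3 summit inside the 250 bases before the start. Their sequences are shown because they are the places where the bases under such a SMAD2/3 summit can be read; they were chosen after their values were seen. Each is given 5′ to 3′ on the gene's strand, ending at the base before the start. Capitals mark matches, on either strand, to the SMAD element CAGAC, to AAGGTCA (bound by SF-1, the gonadotrope nuclear receptor encoded by Nr5a1) and to GCGCATGC (bound by NRF1, a regulator of respiratory and housekeeping genes). Lhb encodes the β subunit of luteinizing hormone (chr7:45420696-45420945, + strand), Mtf2 a Polycomb-associated protein (chr5:108065424-108065673, + strand) and Slc33a1 an acetyl-CoA transporter (chr3:63964734-63964983, − strand).
Lhb: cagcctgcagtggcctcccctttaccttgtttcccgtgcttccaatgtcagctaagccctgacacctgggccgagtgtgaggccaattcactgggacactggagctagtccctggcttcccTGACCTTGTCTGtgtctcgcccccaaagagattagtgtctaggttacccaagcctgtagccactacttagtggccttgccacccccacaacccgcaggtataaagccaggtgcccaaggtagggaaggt
Mtf2: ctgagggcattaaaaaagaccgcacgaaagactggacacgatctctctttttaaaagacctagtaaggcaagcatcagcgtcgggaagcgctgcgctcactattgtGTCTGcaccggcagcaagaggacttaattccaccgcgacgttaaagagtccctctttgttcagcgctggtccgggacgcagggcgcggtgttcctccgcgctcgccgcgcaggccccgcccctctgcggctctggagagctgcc
Slc33a1: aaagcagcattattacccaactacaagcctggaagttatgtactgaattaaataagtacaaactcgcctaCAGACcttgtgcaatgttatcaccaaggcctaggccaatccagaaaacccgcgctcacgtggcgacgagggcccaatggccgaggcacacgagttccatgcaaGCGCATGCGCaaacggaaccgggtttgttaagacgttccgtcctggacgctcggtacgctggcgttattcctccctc
In Lhb the summit lay at −66 bp from the start, with CAGAC at −122 abutting AAGGTCA at −129. In Mtf2 the summit lay at −145 and CAGAC began at −144. In Slc33a1 the summit lay at −34, with CAGAC at −180 and GCGCATGC matches overlapping at −77 and −75. Positions give the leftmost base of a match, counted back from the start.

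Across the 12 windows, CAGAC was present in 8, against 42.2% of all 32851 windows searched over the same 250 bases. The other SMAD elements searched were GGCGC (8 of 12, all windows 32.0%), GGCCG (6 of 12, 30.4%) and the palindrome GTCTAGAC (0, 0.167%). The forkhead elements GTAAACA and GTCAACA were in none of the 12 (3.17% and 2.07% of all windows). AAGGTCA was in the Lhb window alone (4.08% of all windows), and GCGCATGC was in 3 (2.26%). The 12 windows are not independent: the Afmid and Tk1 windows, both with CAGAC, belong to 1 SMAD2/3 site, and the Cnot9 and Usp37 windows, of another site, cover nearly the same bases, so their matches are counted in both. The AP-1 element TGAGTCA, the cyclic AMP element TGACGTCA, the E-box CAGCTG, the LIM homeodomain element TAATTA and the PITX element TAATCC were in none, nor were the GATA element AGATAA, the EGR element GCGTGGG, the YY1 element AAGATGG and the ETS element CCGGAAG (1.55 to 13% of all windows). The TEAD element GGAATG (12.6% of all windows) and the RUNX element TGTGGT (14.1%) were in 1 each. GGCGC and GGCCG can lie within other GC-rich matches. Only exact matches were counted, so variants of an element were missed. A string absent from a window, that of Lhb included, does not mean that the factor has no element there. With 12 windows these are descriptions of letters, not of binding.

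SMAD2/3 signal at the 902 sites was modest. These values took part in the selection and are given as a description. Fold enrichment is the deposited ratio of a peak to the peak caller's background, and rank is the percentile of a peak's −log10 q in its own list, with 100 for the strongest. Median fold was 5.69 and 5.27 in the 2 activin libraries, with ranges of 2.26 to 21.5 and 2.42 to 25.6, against medians of 6.28 and 5.87 at the 3740 new sites with FOXL2. Median −log10 q was 11.7 and 9.06 against 14.7 and 11.0, and median mean rank was 47.3 against 57.3. The regions without FOXL2 were also narrower, with a median width of 267.5 bp against 291 bp.

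The highest mean rank (99.2) belonged to a site at chr2:26195390-26195849, 3.94 kb upstream of the start of the noncoding gene Gm13553. The nearest RefSeq coding gene was Lhx3, a LIM homeodomain gene needed for pituitary development. The nearer end of Lhx3, which need not be its start, lay 4.59 kb away. SMAD2/3 fold at the site was 21.5 in activin replicate 1 and 25.6 in activin replicate 2. H3K27ac fold there was 2.68 in vehicle replicate 1, with no peak in vehicle replicate 2, and 6.65 and 5.78 after activin, so both activin values lay above the single vehicle value. No FLAG list had a peak on it, and the nearest shared FOXL2 region was 25.8 kb away.

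Places 2 to 4 went to sites near Gm29176, Gm13586 and Gm26576. The Gm29176 site (chr9:13065904-13066288, intergenic) had SMAD2/3 folds of 13.2 and 12.7 and H3K27ac folds of 4.85 and 4.25 under vehicle and 6.65 and 5.97 after activin. The Gm13586 site (chr2:38584721-38585031) lay in an intron of Nek6, which encodes a mitotic kinase, with SMAD2/3 folds of 11.6 and 12.03. Its H3K27ac folds were 6.75 and 6.15 under vehicle and 9.51 and 8.75 after activin. The Gm26576 site (chr10:66974304-66974673) had SMAD2/3 folds of 19.0 and 17.1 and H3K27ac folds of 3.48 and 3.52, then 4.73 and 4.63. It also had FLAG peaks in both activin libraries (folds 5.34 and 4.56), which did not overlap each other, and in vehicle replicate 2 (2.78). At all 3, each activin H3K27ac value exceeded each vehicle value. Place 5 lay in an intron of Ppargc1b, a coactivator of mitochondrial genes (H3K27ac folds 6.65 and 6.21 under vehicle, 10.1 and 8.96 after activin), and place 7 in an intron of Sh3tc2 (6.63 and 6.38, then 8.51 and 8.45). Places 6 and 8, near Gm13332 and 4930461G14Rik, had the same order of values. Place 3 had a FLAG peak in vehicle replicate 2 (fold 4.025). Place 7 had FLAG peaks in both vehicle libraries (3.74 and 3.19) and in activin replicate 2 (2.92). Places 2, 5, 6 and 8 had none. From place 2 to place 8, the gap to the nearest shared FOXL2 region was 287, 9653, 879, 898, 68, 67 and 41572 bp. Differences of fold at single sites were not tested.

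**Figure D1:**
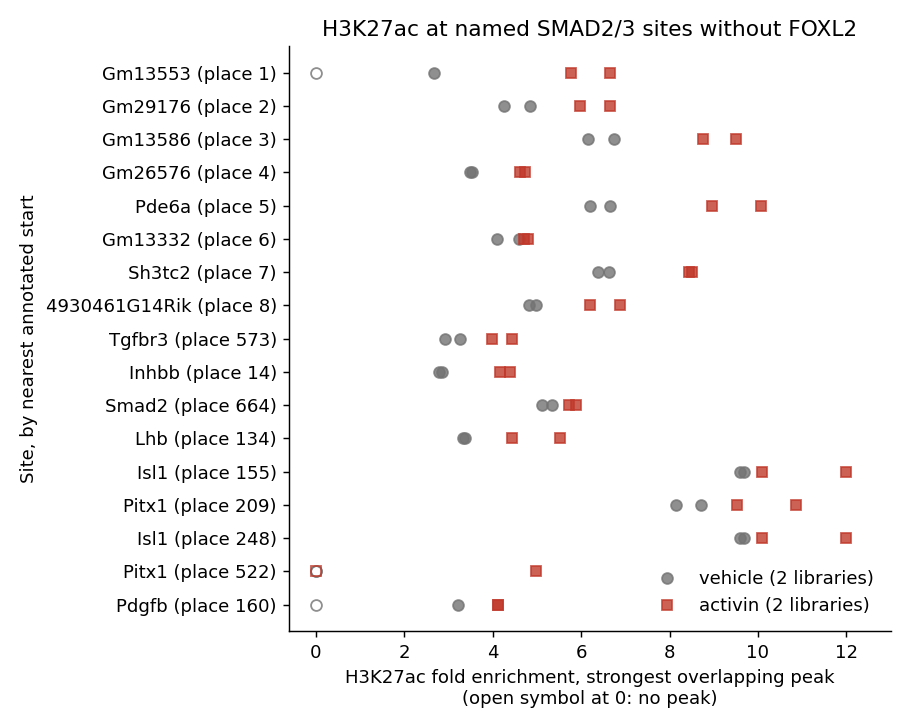
H3K27ac fold enrichment (x axis) of the strongest peak over named SMAD2/3 sites without FOXL2 (y axis, nearest annotated start and place by mean SMAD2/3 rank) in 2 vehicle libraries (circles) and 2 activin libraries (squares), with an open symbol at 0 for no peak. At the Gm13553 site, place 1, activin values were 6.65 and 5.78 and the only vehicle peak was at 2.68.

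The name "without FOXL2" holds for the rule and not for every library. No FLAG list had a peak on 579 of the 902 sites (64.2%), while 185 had a peak in 1 list, 77 in 2, 61 in 3 and 0 in all 4. A peak in 1 activin FLAG list lay on 224 (24.8%), a peak of each activin list lay on 1, the Gm26576 site, where the 2 peaks did not share a base, and 99 (11.0%) overlapped a FLAG region of both vehicle libraries. By library, 15.2% and 17.6% of the sites had a FLAG peak under vehicle and 11.0% and 14.1% after activin, an order that the use of the activin lists in the selection favours. Those FLAG peaks were mostly low: their median fold was 4.09 and 3.93 under vehicle and 3.74 and 3.92 after activin, where whole lists had medians of 7.02, 6.21, 6.61 and 6.58. The selection removed sites on FLAG regions shared by both activin libraries, which favours low values among the peaks left. The comparison with whole lists is therefore a description. The highest were vehicle peaks, at 26.6 in vehicle replicate 1 on a site 2.10 kb from the start of Isl1, and at 15.9 and 17.6 in the 2 vehicle libraries on the Lpgat1 site. The Isl1 site had no FLAG peak in vehicle replicate 2. After activin those sites had a FLAG peak in 1 library each, at 2.92 and 4.11. They lay 69 and 37 bp from a FOXL2 region of both activin libraries, and the selection allowed no such region on them. A peak counted here with an overlap of 1 bp, so no loss of FOXL2 is read from these values. Of 325 FLAG regions over the sites, 33 (10.2%) were called in both vehicle and neither activin library, against 3.22% of all FLAG regions; the selection used that contrast and nothing is read from it.

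Distances to FOXL2 varied widely. The activin FLAG lists held 97701 and 94006 peaks. Gaps from other places in the genome were not computed, so these distances are a description. The gap to the nearest FOXL2 region of both activin libraries had a median of 5947 bp and quartiles of 1779 and 15744 bp. It was at most 500 bp at 79 sites (8.76%), at most 5000 bp at 417 (46.2%) and over 50000 bp at 67 (7.43%), with 195212 bp the longest. The sites nearest the threshold lay by Gm22302 (gap 13 bp), Lpgat1 (37 bp) and Fkbp6 (48 bp), with SMAD2/3 folds of 3.45 and 4.84, 6.44 and 4.34, and 5.31 and 2.91. The new sites just past it lay by A830039N20Rik (38 bp of FOXL2 overlap), Gm13202 (43 bp) and 1110008E08Rik (60 bp), with folds of 6.12 and 8.02, 3.804 and 5.52, and 4.91 and 4.49. The 3 inside ran from 2.91 to 6.44 and the 3 outside from 3.804 to 8.02.

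**Figure D2:**
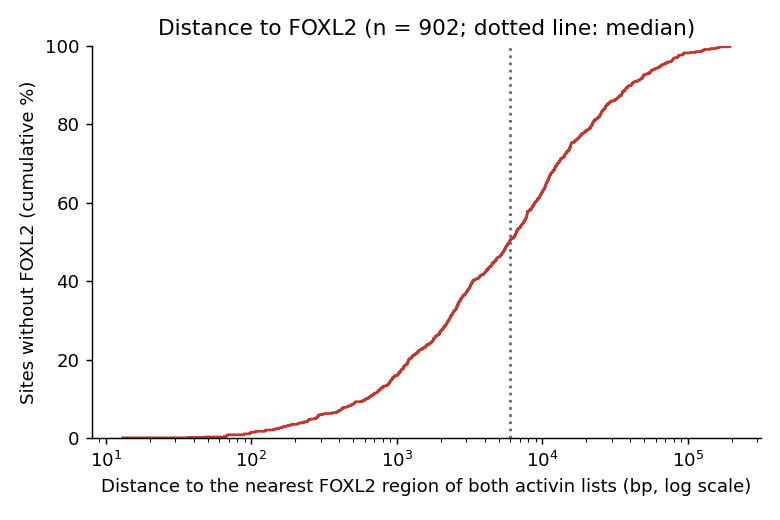
Cumulative share of the 902 SMAD2/3 sites without FOXL2 (y axis, %) by distance to the nearest FOXL2 region of both activin libraries (x axis, bp, log scale). The dotted line marks the median, 5947 bp, and 46.2% of the sites lay within 5000 bp.

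H3K27ac was not used in choosing the sites. Of the 902, 741 lay on an H3K27ac region of both activin libraries, 82.2% (79.5 to 84.5%), against 2665 of 3740 new sites with FOXL2, 71.3%. The difference was 10.9 percentage points (Newcombe 95% interval 7.90 to 13.7). It was present under vehicle too, where by selection none of these sites had a SMAD2/3 peak: 69.1% of sites without FOXL2 lay on an H3K27ac region of both vehicle libraries against 54.1% of those with it, a difference of 15.0 points (11.5 to 18.3). H3K27ac peaks of all 4 libraries covered 547 sites without FOXL2 (60.6%) against 46.0% with it, and 138 sites (15.3%) had none in any library against 23.6%. The share was higher without FOXL2 on 18 of 20 chromosomes, chromosomes 3 and 16 being the exceptions. The SMAD2/3 summit itself lay inside the H3K27ac region at 74.2% of sites without FOXL2 and 59.9% with it (difference 14.3 points, 10.9 to 17.4). Intervals cover counting error over regions, which are not replicates and can lie near each other.

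The H3K27ac regions under these sites were wide. Their median width was 3561 bp against 3005 bp at new sites with FOXL2 and 1149 bp over all 30492 H3K27ac regions of both activin libraries. A wider region is more likely to hold any site, so the comparison with all regions is a description. Of the 741 acetylated sites, 248 (33.5%) shared the H3K27ac region with a FOXL2 region elsewhere in it, and 119 (16.1%) with a SMAD2/3 region that carried FOXL2. The matching shares over all H3K27ac regions were not computed.

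By library, 69.0% and 66.4% of the 902 sites had an H3K27ac peak under vehicle and 81.9% and 74.4% after activin. The activin libraries both lay above the vehicle libraries, with means of 78.2% ± 5.33 and 67.7% ± 1.80 (SD, n = 2 each). The difference of 10.5 points exceeded the pooled SD of 3.98, and the exact two-sided permutation test gave p = 0.33, the smallest that 2 against 2 libraries allow. New sites with FOXL2 had 53.6% and 52.5% under vehicle and 71.3% and 64.9% after activin, a difference of 15.0 points (pooled SD 3.20, exact permutation p = 0.33). Whether the 2 kinds of site differed in this change was not tested over libraries. At either kind of site, activin replicate 2 lay below activin replicate 1.

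**Figure D3:**
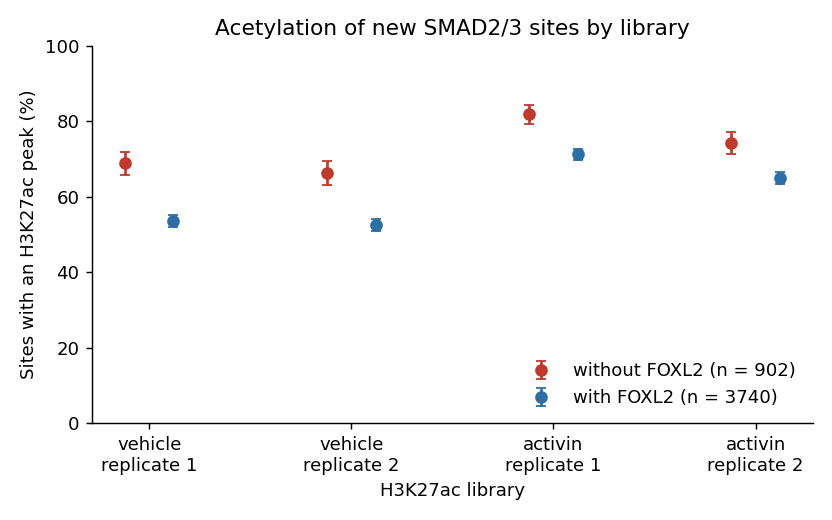
Share of new SMAD2/3 sites with an H3K27ac peak (y axis, %) in each of the 4 H3K27ac libraries (x axis), for 902 sites without and 3740 with FOXL2; bars are Wilson 95% intervals. Sites without FOXL2 lay higher in every library, between 66.4% and 81.9%.

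Sites without FOXL2 were fewest among the strongest new sites. From bin 1, the weakest, to bin 4, the strongest, of 4 equal bins of new sites by mean SMAD2/3 rank, sites without FOXL2 were 24.4%, 23.0%, 19.0% and 11.4% of the sites. Their acetylated share in those bins was 77.7%, 77.5%, 88.6% and 90.2%, against 56.7%, 63.9%, 74.9% and 86.7% at sites with FOXL2. The difference was 21.0 points in bin 1 (14.9 to 26.6), 13.6 in bin 2 and 13.7 in bin 3. In bin 4 it was 3.47 points with an interval that included 0 (−3.10 to 8.04). With vehicle H3K27ac bin 4 had a difference of 9.42 points (0.860 to 16.8). Whether the difference itself changed with SMAD2/3 strength was not tested.

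**Figure D4:**
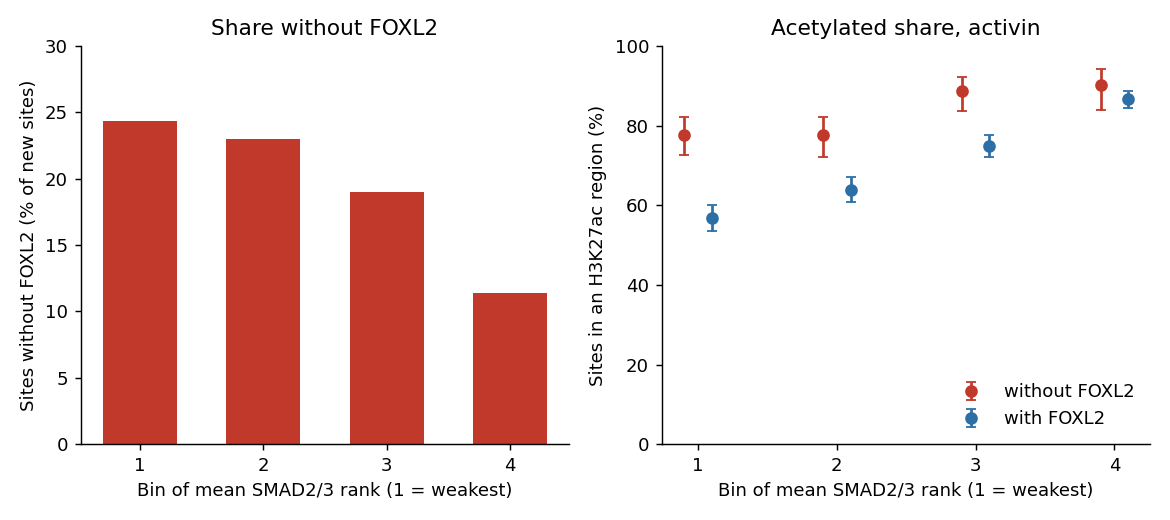
Left, sites without FOXL2 as a share of new SMAD2/3 sites (y axis, %) in 4 bins of mean SMAD2/3 rank, 1 the weakest (x axis). Right, share lying on an H3K27ac region of both activin libraries (y axis, %) without and with FOXL2, with Wilson 95% bars; the shares were 77.7% and 56.7% in bin 1 and 90.2% and 86.7% in bin 4.

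Most acetylated sites without FOXL2 had the mark in both treatments, and at most of those it ranked higher after activin. Of 629 H3K27ac regions that overlapped these sites and no new site with FOXL2, 55 (8.74%) were called in both activin and neither vehicle library. The share was 5.84% over all 53008 H3K27ac regions and 15.3% (398 of 2596) at regions over sites with FOXL2 alone (difference, without minus with FOXL2, −6.59 points, −9.02 to −3.78). In the opposite direction 1 of 629 regions (0.159%) was called in both vehicle and neither activin library, against 6.79% of all regions. At regions over sites with FOXL2 alone it was 7 of 2596 (0.270%), and the interval of the difference included 0 (−0.111 points, −0.425 to 0.638).

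Among H3K27ac regions with a peak in all 4 libraries, 359 of 532 over sites without FOXL2 (67.5%, 63.4 to 71.3%) had both activin ranks above both vehicle ranks. This was so for 26.4% of all 24356 such regions and for 62.4% (1185 of 1899) over sites with FOXL2, a difference of 5.08 points (0.455 to 9.51). That difference did not hold when fold was ranked in place of −log10 q (4.56, −0.117 to 9.07), nor without vehicle H3K27ac replicate 1 (4.13) or activin H3K27ac replicate 1 (3.65). At sites with no FLAG peak in any library it was 12.6 points (7.28 to 17.4). Both activin ranks lay below both vehicle ranks in 61 of 532 regions (11.5%), against 31.2% of all regions and 17.7% at sites with FOXL2 (difference −6.28 points, −9.30 to −2.87). The regions compared here were not matched on width or strength.

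Counted by site, 377 of the 547 sites with all 4 peaks (68.9%) had both activin ranks above both vehicle ranks, 65 (11.9%) had them below and 105 overlapped. Median rank was 85.1 and 84.5 under vehicle and 93.2 and 91.6 after activin. Median fold was 5.26 and 4.97 under vehicle and 6.53 and 6.20 after activin. Ranks stand within lists of different length, so they describe order in a list and not an amount of acetylation.

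**Figure D5:**
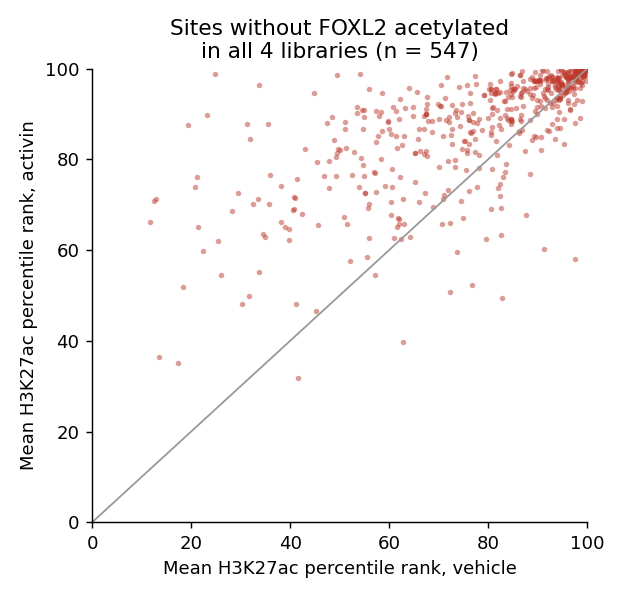
Mean H3K27ac percentile rank over the 2 activin libraries (y axis) against the mean over the 2 vehicle libraries (x axis) for the 547 sites without FOXL2 with an H3K27ac peak in all 4 libraries; the line marks equal ranks. At 377 sites both activin ranks lay above both vehicle ranks.

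The sites that gained an H3K27ac region called after activin alone included 4 named by SMAD2/3 rank. The site near A130048G24Rik, at the Ankrd44 gene, had H3K27ac folds of 4.28 and 5.17 after activin, and the site upstream of Klk15, a kallikrein protease gene, had 4.86 and 4.17. The site in an intron of Sema3a, a secreted axon guidance gene, had 3.43 and 3.66, and the site in an intron of Dpp6, which encodes a potassium channel subunit, had 4.04 and 3.55. None of the 4 had a vehicle H3K27ac peak or any FLAG peak. Their SMAD2/3 folds were 11.2 and 10.3, 15.5 and 10.8, 8.44 and 10.6, and 7.02 and 6.48.

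The 138 sites with no H3K27ac peak were lower in SMAD2/3 rank, with a median of 40.8 against 49.5 at the 612 sites acetylated in both treatments. Their median gap to FOXL2 was 8.04 kb against 5.15 kb. The 4 strongest lay near Smarcal1, a DNA annealing helicase gene, within Dpyd, which encodes a pyrimidine-degrading enzyme, within Xkr7 and near Peli3, a ubiquitin ligase gene. Their SMAD2/3 folds were 10.0 and 8.86, 13.5 and 12.8, 7.49 and 7.31, and 8.62 and 6.96, so strong SMAD2/3 peaks without called acetylation were present.

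By the deposited annotation, 45.2% of sites without FOXL2 were intergenic and 44.6% intronic, against 38.9% and 52.3% with FOXL2. The differences were 6.30 points (2.72 to 9.91) and −7.71 points (−11.3 to −4.07). Promoter class, which the annotation assigns close to a start, was given to 46 sites (5.10%) against 3.34% with FOXL2, a difference of 1.76 points (0.355 to 3.48). This difference was not kept when sites within 1 kb of the nearest start were counted instead (0.993, −0.234 to 2.54), nor over sites with no FLAG peak in any library (1.15, −0.392 to 3.23). Median distance to the nearest annotated start was 19.9 kb against 22.1 kb, and 23.7% against 27.8% lay beyond 50 kb.

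The Mtf2 site, whose bases are also printed, had SMAD2/3 folds of 5.65 and 9.09 and H3K27ac folds of 5.38 and 4.37 under vehicle and 6.05 and 6.44 after activin. The Slc33a1 site had SMAD2/3 folds of 3.88 and 4.23 and no H3K27ac peak in any library. Each had a FLAG peak in 1 library. At Mtf2 the activin H3K27ac values again lay above the vehicle values.

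The promoter site at Lhb (chr7:45420755-45421007) covered the start, whose upstream bases are printed above. SMAD2/3 fold was 3.14 and 3.96 in the activin libraries, with a mean rank of 74.1 and no peak under vehicle. H3K27ac fold was 3.38 and 3.33 under vehicle and 5.51 and 4.43 after activin, and H3K27ac rank was 64.1 and 67.7 under vehicle and 89.4 and 79.6 after activin. Both activin values were above both vehicle values on either scale. No FLAG list had a peak there, and the nearest shared FOXL2 region was 38.8 kb away. LβT2 cells come from mice with a transgene driven by Lhb regulatory sequence, and how reads from such copies were mapped is not given in the sources used here; their part in these values was not tested.

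Other promoter-class sites lay at Scarb1, the high-density lipoprotein receptor, at Sipa1l3 and at Eml6. The Scarb1 site, 14.1 kb from the deposited nearest start, had SMAD2/3 folds of 9.33 and 8.99 and H3K27ac folds of 5.01 and 5.25 under vehicle and 6.27 and 6.16 after activin. The Sipa1l3 site had SMAD2/3 folds of 8.02 and 6.21 and lay 148 bp from a FOXL2 region. The Eml6 site, 51.2 kb from the deposited nearest start, had H3K27ac after activin alone (4.53 and 4.88), and a FLAG peak in 3 of 4 libraries.

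Among listed activin pathway genes, 1 of 12 ligands (8.33%) and 1 of 10 receptors (10%) were nearest to a site. For SMADs it was 1 of 6 (16.7%) and for feedback genes 0 of 12. Over all 28467 genes of the annotation tables, 2.78% were nearest to a site without FOXL2 and 9.58% to one with it. Nearest means the deposited nearest start of any gene type, and 54.4% of sites without FOXL2 had a protein-coding nearest gene. A listed gene can therefore be missed where a noncoding gene or pseudogene starts nearer. The lists were short, so 1 gene sets each share above 0 and nothing is read from them. Among ligands, Inhbb, the activin β-B subunit gene, was the only 1 of 12 listed genes nearest to a site, 24.1 kb from its start (chr1:119397954-119398280) with SMAD2/3 folds of 17.6 and 11.4. H3K27ac fold there was 2.78 and 2.85 under vehicle and 4.40 and 4.17 after activin, and 1 FLAG list had a peak. The nearest shared FOXL2 region was 955 bp away, and Inhbb was also nearest to 1 site with FOXL2. Among receptors, Tgfbr3, the coreceptor betaglycan that binds inhibin, held an intronic site with SMAD2/3 folds of 5.89 and 6.27 and H3K27ac folds of 3.26 and 2.91, then 4.44 and 3.98; it was 1 of 10 receptor genes. Among SMADs, Smad2 was nearest to a site with SMAD2/3 folds of 4.02 and 3.58 (1 of 6 genes). Sites with FOXL2 were nearest to the receptor genes Bmpr1a and Bmpr1b and to Smad3.

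No listed feedback gene (0 of 12) or immediate early gene (0 of 15) was nearest to a site without FOXL2. Ldlrad4 and Fos were nearest to a site with FOXL2. Among 13 general SMAD target genes Pdgfb, a growth factor, was the only gene (7.69%), with SMAD2/3 folds of 9.01 and 9.06. The share over all genes was 2.78%, and with lists this short nothing is read from these counts.

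Among 18 gonadotrope genes in the tables, 3 (16.7%) were nearest to 5 sites without FOXL2, and 8 (44.4%) to 12 sites with it. Over all genes the shares were 2.78% and 9.58%. The list was short and chosen with earlier results known, so nothing is read from these shares. The 3 were Lhb and the pituitary transcription factor genes Isl1 and Pitx1, and the last 2 were also among the 8. The listed gene Lhx3 was not counted, although it was the nearest coding gene to the highest-ranked site, because Gm13553 had the nearer start. Isl1 had 2 sites, 15.6 kb and 2.10 kb from its start, on a single H3K27ac region whose folds were 9.69 and 9.59 under vehicle and 11.99 and 10.1 after activin. They lay 252 and 69 bp from a FOXL2 region, and each had a FLAG peak in 2 of 4 libraries. Pitx1 had 2 sites as well, 122 and 28.0 kb from its start. The first had H3K27ac folds of 8.72 and 8.15 under vehicle and 10.9 and 9.54 after activin. The second had an H3K27ac peak in activin replicate 1 alone, at 4.99. None of the 6 genes of other pituitary lineages in the tables was nearest to a site. With 2.78% of all genes nearest to one, that list was too short for its 0 to be read.

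The sites were spread thinly. By the deposited nearest start, the 902 sites fell to 792 genes and no gene had more than 3, a number that 14 genes reached. By the nearest RefSeq coding gene, 5 genes had 4 sites each: Auts2, Camta1 and Rbfox1, long genes expressed in neurons, Macroh2a1, which encodes a histone variant and whose count includes a Pitx1 site above, and Ubl3. New sites with FOXL2 at these genes numbered 14 for Auts2, 3 for Camta1, 15 for Rbfox1, 2 for Macroh2a1 and 4 for Ubl3. Another activin SMAD2/3 region lay within 10 kb of 31.4% of sites without FOXL2 and 28.3% with it, and the interval of the difference included 0 (3.11 points, −0.175 to 6.52). The share of new sites without FOXL2 ran from 11.4% on chromosome X to 25% on chromosome 8.

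Within 500 kb of the start of Fshb, which encodes the β subunit of follicle-stimulating hormone, 3 sites without FOXL2 were found, near Gm13901, SCARNA4 and Mpped2. The Gm13901 site (chr2:106895552-106896026) had SMAD2/3 folds of 5.59 and 5.32, a FLAG peak in 3 of 4 libraries and H3K27ac in activin replicate 1 alone (2.59). The other 2 lay in Mpped2 with SMAD2/3 folds of 3.63 and 2.82, and 2.26 and 3.34. Their H3K27ac folds were 4.49 and 3.96 under vehicle and 4.02 and 3.799 after activin at the first, whose groups overlapped, and 5.33 and 5.83, then 4.96 and 4.63 at the second, where both activin values lay below both vehicle values.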

How the data were processed

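Peaks had been called per library and deposited by the authors as narrow (SMAD2/3, FLAG) or broad (H3K27ac) lists; Bowtie2, MACS2, HOMER and the builds GRCm38 and mm10 stand in the submitters' processing notes. The deposited lists hold a score, a fold enrichment (linear ratio) and −log10 p and q for each peak, all the authors' values, used only within a list. The deposited annotation tables, which per the file headers are HOMER annotatePeaks output, give class, nearest start and distance. Coordinates are as deposited, counted from 1, and read depth is unknown. Merging and overlap needed 1 bp; a region of both libraries held a peak of each. Shares carry Wilson and differences Newcombe 95% intervals. An interval without 0 counts as a difference over these regions, which are not replicates, and not as one between libraries. Libraries were compared by exact permutation (Python 3.11.15, scipy 1.17.1), and functions were tested on simulated data.

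The members and lists were chosen with earlier results of these data known. Named sites are the 8 highest by mean SMAD2/3 rank, the 4 highest each without H3K27ac, of promoter class and on activin-only H3K27ac, sites nearest to listed genes, genes with most sites (the 5 RefSeq coding genes, since 14 tied in the deposited tables), sites within 500 kb of Fshb, and 3 on each side of the FOXL2 threshold. Motifs at the summits were not analysed, for want of a genome sequence of this build; RefSeq start windows were used instead. Alternatives varied the FOXL2 definition, the overlap, the q threshold, the ranked value and each replicate. 1 control sample was not analysed here.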

Additional observations from a re-analysis of the deposited data

How the results depend on the processing

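The number of sites, 902, fell to 579 when a FLAG peak in any library was enough to remove a site, was 1390 with FOXL2 regions of both vehicle libraries, and ranged from 780 to 1748 with a SMAD2/3 or FLAG replicate left out; the 1748 came without activin SMAD2/3 replicate 2. The acetylated share, 82.2%, was 69.1% under vehicle H3K27ac, 73.6% with 50% of the site covered, 69.3% at −log10 q of at least 5, 72.8% with each activin peak on the site itself (chosen after seeing the data), and 74.4 to 81.9% with an activin H3K27ac replicate left out. Its difference from sites with FOXL2 kept its direction and an interval above 0 in 13 of 14 alternatives, the exception being the strongest of 4 bins of SMAD2/3 rank (3.47 points). The difference between activin and vehicle libraries ran from 6.71 to 14.3 points with a replicate left out and could not pass a threshold in any setting. The labels name nothing that vehicle and activin libraries of the same number share, and the correlation of their deviations was −0.028 over all 24356 H3K27ac regions and 0.127 over the 633 at these sites; with a replicate block the difference was 10.5 points (exact permutation p = 0.5). The share ranked higher after activin, 67.5%, was 69.2 to 78.7% with an H3K27ac replicate left out and 74.9% at sites with no FLAG peak. Over all H3K27ac regions the share rose too, from 26.4% to between 34.3 and 38.7% with a replicate left out. The excess of sites without FOXL2 over sites with it, 5.08 points, was 4.56 with fold ranked. It was 3.65 to 7.25 with a replicate left out and 12.6 at sites with no FLAG peak. The intervals with fold ranked, without vehicle replicate 1 and without activin replicate 1 included 0. The promoter excess, 1.76 points, was 0.993 within 1 kb of a start and 1.15 at sites with no FLAG peak, with intervals that included 0 in both. The cause of these changes was not tested. Motif shares at summits were not run.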

Other observations

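Sites on which no FLAG library had a peak, 579, and those with a FLAG peak in 1 to 3 libraries, 323, were set side by side as a description. Their acetylated shares were 81.0% and 84.2% after activin and 67.4% and 72.1% under vehicle. Median SMAD2/3 fold was 5.68 and 5.32 in the first kind and 5.72 and 5.22 in the second. The median distance to the nearest FOXL2 region was 6.996 kb and 4.51 kb. The 129 sites on an H3K27ac region of both activin but not both vehicle libraries had a median SMAD2/3 fold of 6.31 and 6.10, against 5.62 and 5.19 at the 612 sites with both.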
